A study of Homo sapiens with 4 samples.

Results

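The SLC25 genes encode the mitochondrial carriers, and their mRNA levels were compared between HEK293T cells that lack the RNA helicase HELZ and wild-type (WT) cells. Members were the genes of the count table whose symbol is SLC25A followed by a number, which gave 48 of 27011 genes. HEK293T is a line of human embryonic kidney cells that carries the SV40 large T antigen. The Helz-null line was made from it with CRISPR-Cas9 and a guide RNA against a coding exon of HELZ, which left a small deletion that shifts the reading frame. The WT group was the unedited HEK293T line. Both lines were harvested untreated, 24 h after plating, and TruSeq RNA libraries were made from their total RNA. There were 2 biological replicates of each line, named WT 1, WT 2, Helz-null 1 and Helz-null 2. Only a single edited line was sequenced, so loss of HELZ and any other difference between these lines cannot be told apart.

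Mitochondrial carriers are small membrane proteins built from repeated pairs of helices, and most of them sit in the inner mitochondrial membrane. Most carriers move particular metabolites between the cytosol and the matrix, among them nucleotides, phosphate, carboxylates, amino acids, cofactors and iron. They are encoded in the nucleus, and most are imported into mitochondria after translation, where they connect respiration with synthesis in the cytosol.

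The libraries held 65005666 counts (WT 1), 42342295 counts (WT 2), 41745401 counts (Helz-null 1) and 70464140 counts (Helz-null 2). At these depths 3 counts corresponded to between 0.0426 and 0.0719 CPM (counts scaled to a common library size), a floor that covers counting error only. The range of mapped reads that the authors report lies below all of these library totals. Both mates of a read pair may have been counted, in which case counts overstate the number of fragments. The edited gene was checked first. HELZ stood at 97.6 and 102 normalized CPM in WT 1 and WT 2, and at 36.2 and 37.1 normalized CPM in Helz-null 1 and Helz-null 2. Its mRNA thus fell in both Helz-null libraries (log2FC −1.44 ± 0.04 (SE), FDR = 2.0e-29), so the labels and the edited gene point the same way. Here log2FC is Helz-null minus WT, and FDR is the Benjamini-Hochberg adjusted p of edgeR's quasi-likelihood test over all 11310 genes with a mean FPKM (counts scaled by library total and by gene length) above 2. GAPDH, a glycolytic enzyme often used as a reference, was lower as well (log2FC −0.19, FDR = 4.9e-08).

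Levels across the family spanned several orders of magnitude, compared here as FPKM because that scale accounts for gene length. SLC25A5, the ADP/ATP carrier of proliferating cells, was the most abundant member in each library, with 632 and 638 FPKM in WT 1 and WT 2 and 611 and 622 FPKM in Helz-null 1 and Helz-null 2. SLC25A3, the phosphate carrier, followed with a mean of 229 FPKM, and SLC25A39, a glutathione carrier, with 162 FPKM. These 3 genes held at least 59.2% of the family's summed FPKM in each library. The citrate carrier SLC25A1 (81.4 FPKM) and the oxoglutarate-malate carrier SLC25A11 (79.7 FPKM) came next, with means that lie close together. Their order differed by group. In WT SLC25A11 had the higher mean (82.3 against 78.2 FPKM), and in Helz-null SLC25A1 did (84.5 against 77.1 FPKM). The dicarboxylate carrier SLC25A10 had a mean of 60.2 FPKM and the ATP-Mg/phosphate carrier SLC25A23 one of 42.3 FPKM. SLC25A13, SLC25A33 and SLC25A17 completed the 10 highest, with means between 30.3 and 32.2 FPKM. SLC25A33 could not be put in an order with SLC25A13 or with SLC25A17 because its libraries overlapped theirs.

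**Figure D1:**
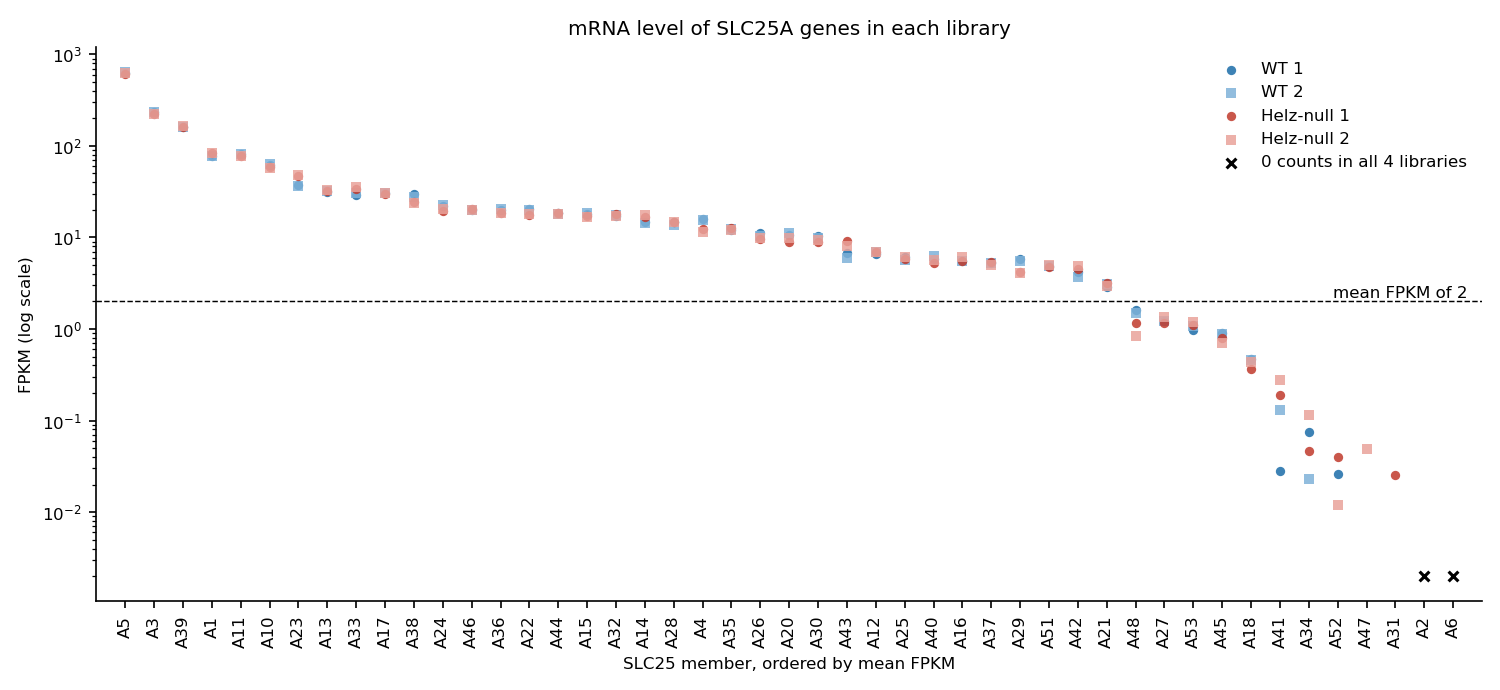
FPKM of 47 SLC25A genes in the 4 libraries on a log axis, ordered by mean FPKM, with a dashed line at the mean FPKM of 2 required for testing. SLC25A5 lies at the top with a mean of 626 FPKM, 35 of those drawn lie above the line, and crosses mark the 2 members listed at 0 in all 4 libraries (a single library at 0 is not drawn).

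Of the 48 members, 36 passed the filter on low levels, which uses the mean of all 4 libraries and is blind to the groups. The other 12 members were not tested. SLC25A48, SLC25A27, SLC25A53, SLC25A45 and SLC25A18 had mean levels between 0.436 and 1.27 FPKM. SLC25A48 was the only one of these 5 whose FDR came close to the threshold when no filter was applied (FDR = 0.0057). Still lower were the remaining members with any count: SLC25A41, SLC25A34, SLC25A52, SLC25A47 and SLC25A31 had means of at most 0.155 FPKM. SLC25A47 had its only 6 counts in Helz-null 2, and SLC25A31, the ADP/ATP carrier of testis, its only 2 counts in Helz-null 1. SLC25A2 and SLC25A6 were listed at 0 in all 4 libraries. For SLC25A6, a widely expressed ADP/ATP carrier, the 0 is not a measure of expression. It lies in the region shared by the X and Y chromosomes, and of 18 protein-coding genes that the annotation places on both, 16 were listed at 0 in every library and the highest count of any was 7.

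The family as a whole changed little in level. Summed over all 48 members, FPKM was 1717 in WT 1 and 1723 in WT 2, against 1678 in Helz-null 1 and 1697 in Helz-null 2. Both Helz-null libraries were lower than both WT libraries, and the ratio of the means was 0.981 (WT 1720 ± 4.04 and Helz-null 1687 ± 13.3, SD, n = 2). An exact two-sided permutation test of 2 libraries against 2 cannot go below p = 0.333, and no test of this sum was run. With library sizes scaled by TMM, the trimmed mean of M-values, the ratio was 0.959.

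Single members did change. Up-regulated in Helz-null cells were 3 of the 36 members tested (8.33%), where 13.5% of all genes tested were up-regulated. Down-regulated were 10 of 36 (27.8%), where 15% of all genes tested were down-regulated. The other 23 members were not called at FDR < 0.005. The median log2FC was −0.05 over the 36 members and −0.0016 over all genes tested. Below 0 were 25 of the 36 members and 5704 of all 11310 genes tested. In 25 of the 36 members (69.4%) the WT and Helz-null libraries did not overlap, as in 69.6% of all genes tested. That share of the family lies at the background. The split between directions depended on the scaling: with library size alone, 5 members were up-regulated and 5 down-regulated, while over all genes 2060 were up-regulated and 1312 down-regulated, in place of 1522 and 1695. SLC25A3, SLC25A10, SLC25A11, SLC25A30 and SLC25A36 then lost their call and SLC25A1 and SLC25A14 gained one. The count of 10 down-regulated members was 4 without Helz-null 1, 6 without Helz-null 2 (5 of the 10 and SLC25A20), 6 with the DESeq2 test and 3 relative to chromosomal neighbours. In the same order, these were 11.1%, 16.7%, 16.7% and 8.33% of the 36 tested members, against 11%, 10.5%, 11.3% and 13.2% of all 11310 tested genes.

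**Figure D2:**
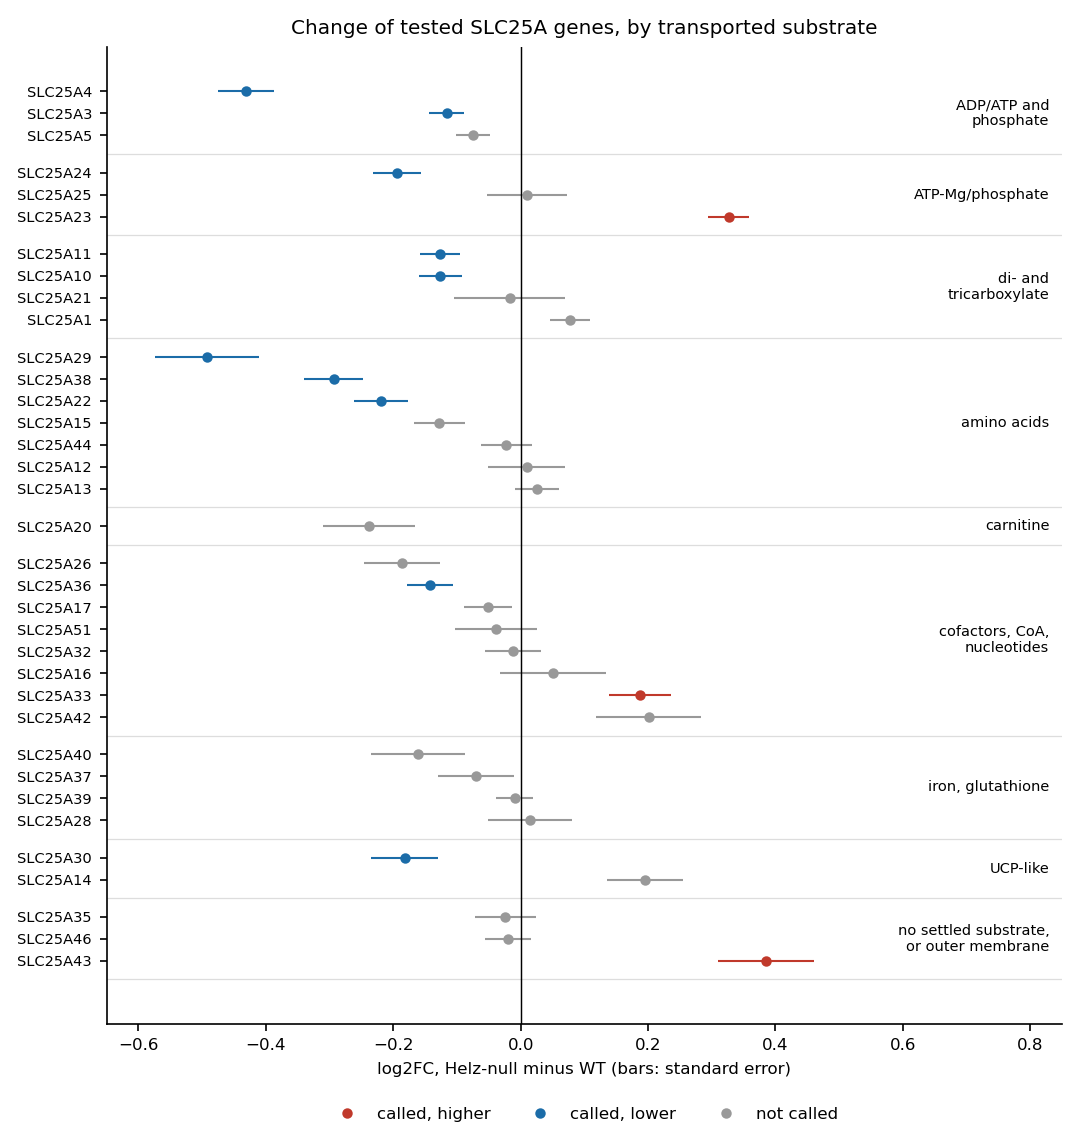
The log2FC (Helz-null minus WT) of 35 of the SLC25A genes tested, grouped by transported substrate, with bars for the standard error and colours for calls at FDR < 0.005. The 10 down-regulated members lie between −0.49 (SLC25A29) and −0.12 (SLC25A3), and the 3 up-regulated ones between 0.19 (SLC25A33) and 0.39 (SLC25A43); with library size alone as scaling, 5 of the down-regulated members were not called.

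The largest changes belonged to SLC25A29, SLC25A4 and SLC25A43, and the promoter windows of these genes are shown for reference. RefSeq lists a window of 250 bases before to 50 bases after the start for 40 of the 48 members on GRCh38.p14, and the first window listed was taken for each gene. Among the called members, SLC25A30 had none. The windows printed lie at chrX:119399086-119399385 on the plus strand for SLC25A43, chr14:100306395-100306694 on the minus strand for SLC25A29 and chr4:185143016-185143315 on the plus strand for SLC25A4, each written 5′ to 3′ on the strand of the gene. Capitals mark the GC box GGGCGG and the CCAAT box CCAAT on either strand, and in SLC25A29 the letters of both motifs adjoin at a single place without overlap.
SLC25A43: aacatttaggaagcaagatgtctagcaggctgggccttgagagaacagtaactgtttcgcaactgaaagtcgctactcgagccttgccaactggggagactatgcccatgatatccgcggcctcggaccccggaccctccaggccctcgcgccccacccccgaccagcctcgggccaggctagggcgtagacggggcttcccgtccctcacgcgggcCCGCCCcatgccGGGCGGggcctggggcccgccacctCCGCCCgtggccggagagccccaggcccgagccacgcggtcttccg
SLC25A29: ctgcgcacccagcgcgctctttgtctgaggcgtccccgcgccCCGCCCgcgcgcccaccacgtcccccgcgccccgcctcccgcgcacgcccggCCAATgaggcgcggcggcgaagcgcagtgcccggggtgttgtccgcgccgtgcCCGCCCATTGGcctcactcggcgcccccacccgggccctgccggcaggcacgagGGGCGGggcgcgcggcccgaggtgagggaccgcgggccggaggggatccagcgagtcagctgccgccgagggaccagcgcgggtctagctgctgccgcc
SLC25A4: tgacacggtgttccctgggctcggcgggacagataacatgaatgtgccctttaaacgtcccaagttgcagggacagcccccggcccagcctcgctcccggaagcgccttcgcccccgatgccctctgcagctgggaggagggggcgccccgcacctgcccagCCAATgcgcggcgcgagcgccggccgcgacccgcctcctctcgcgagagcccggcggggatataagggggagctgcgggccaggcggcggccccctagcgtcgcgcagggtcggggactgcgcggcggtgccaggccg
SLC25A43 and SLC25A29 held 3 GC boxes each, and SLC25A4 none. CCAAT occurred at 2 places in SLC25A29 and at 1 in SLC25A4. Of the 40 members with a window, 28 held GGGCGG on either strand, compared with 44.6% of the 27305 windows of all genes. CCAAT was present in 47.5% of the members' windows and in 35.7% of all windows. The TATA box letters TATAAA stood in 3 members' windows (7.5%), against 11.95% of all windows, and the NRF1 core letters GCGCATGC in none of them, against 3.27%. GC content had a median of 66.2% in the members' windows and 58.3% in all windows. These matches are descriptions of letters and say nothing about binding.

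ADP/ATP and phosphate carriers, which exchange the substrates of ATP synthesis across the inner membrane, had 2 of 3 tested members down-regulated (66.7%, against 15% of all genes tested), too few genes to describe the group by its share. SLC25A4, the ADP/ATP carrier of heart and muscle, reached 71.0 and 68.5 normalized CPM in WT 1 and WT 2 but 53.5 and 50.4 normalized CPM in Helz-null 1 and Helz-null 2. The groups were well apart, and SLC25A4 fell by 25.8% (log2FC −0.43 ± 0.04 (SE), FDR = 4.3e-11). It was the only member also called when the test asked for a change beyond 1.2-fold. The gene lies on chromosome 4 (GRCh37, 186064420 to 186071536), where its neighbours were lower as well. The 17 tested genes nearest to it were all below 0, with a median log2FC of −0.50, and relative to them SLC25A4 stood at a log2FC of 0.06 (FDR = 0.25). A change of SLC25A4 itself and one of this chromosome region cannot be told apart.

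SLC25A3, the phosphate carrier, which also carries copper, measured 485 and 485 normalized CPM in WT 1 and WT 2. In Helz-null 1 and Helz-null 2 it measured 445 and 450 normalized CPM. The replicates were close to each other, and SLC25A3 fell by a small amount (log2FC −0.12, FDR = 6.3e-04). That call was lost without Helz-null 1 (log2FC −0.11) and without Helz-null 2 (log2FC −0.12). SLC25A5 had 865 and 871 normalized CPM in WT 1 and WT 2, and 816 and 832 normalized CPM in Helz-null 1 and Helz-null 2. Its libraries did not overlap between the groups, but it was not called (log2FC −0.07, FDR = 0.022). Among the ADP/ATP carriers that had counts, SLC25A4 made up 2.45% and 2.35% of the summed FPKM in WT 1 and WT 2, and 1.97% and 1.82% in Helz-null 1 and Helz-null 2. SLC25A5 made up nearly all of the rest, and this balance leaves out SLC25A6, for which no usable count was present.

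The calcium-regulated ATP-Mg/phosphate carriers, which adjust the adenine nucleotide pool of the matrix, included a member that rose and a member that fell. SLC25A23 stood at 131 and 129 normalized CPM in WT 1 and WT 2 and at 161 and 165 normalized CPM in Helz-null 1 and Helz-null 2. It rose by 25.4% (log2FC 0.33 ± 0.03, SE), with the lowest FDR of any member (FDR = 2.1e-11). The call held without each of the 4 libraries in turn and relative to its chromosomal neighbours (log2FC 0.21, FDR = 1.3e-06). Part of its sequence is not unique, since 17.4% of the 50-base windows of its transcript also occur on chromosome 3 of GRCh37, so reads could be shared with that copy. SLC25A24 had 86.7 and 88.1 normalized CPM in WT 1 and WT 2, and 74.5 and 77.9 normalized CPM in Helz-null 1 and Helz-null 2. This paralog fell (log2FC −0.19, FDR = 4.7e-05). Its call was lost without Helz-null 1, at a log2FC of −0.17, and relative to its neighbours the log2FC was −0.10 (FDR = 0.036). The third tested paralog, SLC25A25, which contains the same type of calcium-binding domain, had overlapping groups and a log2FC of 0.01.

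Di- and tricarboxylate carriers link the citric acid cycle with lipid synthesis and redox shuttles. SLC25A11 exchanges oxoglutarate for malate in the malate-aspartate shuttle. Its level was 151 normalized CPM in each WT library, 137 in Helz-null 1 and 139 in Helz-null 2. SLC25A10, the dicarboxylate carrier, had 125 and 129 normalized CPM in WT 1 and WT 2, against 118 and 115 normalized CPM in Helz-null 1 and Helz-null 2. Both were down-regulated by the same log2FC of −0.13 (FDR = 0.0013 for SLC25A11 and FDR = 0.0023 for SLC25A10). Both calls were lost without Helz-null 1 and without Helz-null 2. The log2FC was then −0.12 and −0.14 for SLC25A11, and −0.15 and −0.10 for SLC25A10. Without WT 2 the call of SLC25A10 was lost as well, at a log2FC of −0.11. With the DESeq2 test the FDR was 0.0052 for SLC25A11 (log2FC −0.13) and 0.013 for SLC25A10 (log2FC −0.12). Exons of SLC25A11 overlap RNF167 on the opposite strand, and as the use of strand in counting is not stated, reads of these genes may be mixed; RNF167 itself had a log2FC of 0.06. The citrate carrier SLC25A1 was not called, with 155 and 153 normalized CPM in WT 1 and WT 2 and 162 and 163 normalized CPM in Helz-null 1 and Helz-null 2 (log2FC 0.08, FDR = 0.041). The oxoadipate carrier SLC25A21 was lower in level (3.03 FPKM) and had overlapping groups.

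Among the amino acid carriers, 3 of 7 tested members were down-regulated (42.9%, against 15% of all genes tested). SLC25A29 transports basic amino acids and lies on chromosome 14 (GRCh37, 100757453 to 100772884). It had 16.4 and 15.4 normalized CPM in WT 1 and WT 2, and 11.6 and 11.1 normalized CPM in Helz-null 1 and Helz-null 2. This was the largest decrease among the tested members: SLC25A29 fell by 28.9% (log2FC −0.49 ± 0.08 (SE), FDR = 3.3e-06). Its neighbours had a median log2FC of 0.01, and the call was kept when that was taken off (log2FC −0.50, FDR = 3.7e-06). SLC25A38, the glycine carrier needed for haem synthesis, had 64.7 and 59.2 normalized CPM in WT 1 and WT 2, against 51.2 and 50.3 normalized CPM in Helz-null 1 and Helz-null 2. It fell (log2FC −0.29, FDR = 1.1e-06), but 18 of its 20 neighbours on chromosome 3 were also below 0, and relative to them its FDR was 0.088. SLC25A22, a glutamate carrier, measured 67.5 and 65.5 normalized CPM in WT 1 and WT 2, then 56.1 and 58.0 normalized CPM in Helz-null 1 and Helz-null 2. It fell too (log2FC −0.22, FDR = 4.4e-05), and its neighbours did not (median log2FC −0.0030).

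The ornithine carrier SLC25A15 came close to the threshold, with 72.8 and 75.2 normalized CPM in WT 1 and WT 2 and 68.5 and 67.0 normalized CPM in Helz-null 1 and Helz-null 2 (log2FC −0.13, FDR = 0.0085). Both aspartate-glutamate carriers, which work with SLC25A11 in the malate-aspartate shuttle, were not called. SLC25A13 had a log2FC of 0.03 and SLC25A12 one of 0.01. SLC25A44, a carrier of branched-chain amino acids, had a log2FC of −0.02 and overlapping groups. The carnitine-acylcarnitine carrier SLC25A20, which brings fatty acids into the matrix for oxidation, was the uncalled member nearest to the threshold. Its values were 20.5 and 21.5 normalized CPM in WT 1 and WT 2, and 16.7 and 18.7 normalized CPM in Helz-null 1 and Helz-null 2 (log2FC −0.24, FDR = 0.0064). It also had the largest absolute log2FC among the 23 members not called. All 20 of its neighbours on chromosome 3 were below 0 and their median log2FC was −0.24, so that relative to them SLC25A20 stood at 0.0024.

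Carriers of cofactors, CoA and nucleotides included a pair of pyrimidine nucleotide carriers that moved in opposite directions. SLC25A33 had 42.5 and 45.6 normalized CPM in WT 1 and WT 2, and 48.4 and 51.3 normalized CPM in Helz-null 1 and Helz-null 2. It rose (log2FC 0.19, FDR = 0.0018). The call of SLC25A33 was lost without WT 1 (log2FC 0.13) and without Helz-null 2 (log2FC 0.14). With the DESeq2 test the FDR of SLC25A33 was 0.015 (log2FC 0.19). Of the 50-base windows of its transcript, 28.2% occur elsewhere in the genome, most of them on chromosome 11. SLC25A36 had 93.4 and 95.3 normalized CPM in WT 1 and WT 2, against 85.6 and 85.2 normalized CPM in Helz-null 1 and Helz-null 2. It fell (log2FC −0.14, FDR = 0.0013). That call was lost without WT 2 (log2FC −0.13), Helz-null 1 (log2FC −0.15) or Helz-null 2 (log2FC −0.14). With the DESeq2 test the FDR was 0.009 (log2FC −0.14).

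The other tested carriers of this group were not called. SLC25A26, which brings S-adenosylmethionine into the matrix, had 31.1 and 29.2 normalized CPM in WT 1 and WT 2, and 26.2 and 26.9 normalized CPM in Helz-null 1 and Helz-null 2 (log2FC −0.19, FDR = 0.0098). Of its 20 neighbours on chromosome 3, 19 were below 0, with a median log2FC of −0.21. The CoA carrier SLC25A42 had a log2FC of 0.20 with a wider error (SE 0.08, FDR = 0.044), at 4.31 FPKM. It was 0.31 (FDR = 0.0096) without WT 1 and 0.12 (FDR = 0.31) without WT 2. SLC25A16, the peroxisomal carrier SLC25A17, the folate carrier SLC25A32 and SLC25A51 had log2FC between −0.05 and 0.05. For the NAD carrier SLC25A51, 38.6% of the transcript's windows occur elsewhere, mostly on chromosome 18, where its near-copy SLC25A52 lies, so the counts of these paralogs are uncertain. Across the family, 26 of 48 members had no such shared window and 37 had under 5%. The share was 9.78% for SLC25A5, 6.48% for SLC25A38 and 5.76% for SLC25A3.

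Of the 4 iron and glutathione carriers tested, none was called, where 13.5% of all genes tested were up-regulated and 15% down-regulated. The glutathione carrier SLC25A39 had 268 and 267 normalized CPM in WT 1 and WT 2, and 264 and 268 normalized CPM in Helz-null 1 and Helz-null 2. These groups overlapped, and the log2FC was −0.01 ± 0.03 (SE), or 0.02 with library size alone as scaling. Its paralog SLC25A40 had a log2FC of −0.16 (FDR = 0.073). The mitoferrins, which import iron, had a log2FC of 0.01 for SLC25A28 and −0.07 for SLC25A37. The DESeq2 test called none of these 4 either, and SLC25A40 alone had an unadjusted edgeR p below 0.05. Relative to chromosomal neighbours none was called, with log2FC −0.07 (FDR = 0.048) for SLC25A39, −0.21 (FDR = 0.023) for SLC25A40, −0.15 (FDR = 0.042) for SLC25A37 and −0.02 (FDR = 0.85) for SLC25A28.

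The tested carriers that resemble the uncoupling proteins were SLC25A14 and SLC25A30. SLC25A30 stood at 41.1 and 39.6 normalized CPM in WT 1 and WT 2, and at 34.5 and 36.5 normalized CPM in Helz-null 1 and Helz-null 2. It fell (log2FC −0.18, FDR = 0.0044), the call closest to the threshold among the 13. That call was lost without WT 1 (log2FC −0.15), Helz-null 1 (log2FC −0.15) or Helz-null 2 (log2FC −0.23). With the DESeq2 test the FDR was 0.026 (log2FC −0.18). SLC25A14 was higher in both Helz-null libraries, with 26.2 and 25.5 normalized CPM in WT 1 and WT 2 and 29.1 and 30.2 normalized CPM in Helz-null 1 and Helz-null 2, but was not called (log2FC 0.20, FDR = 0.0070).

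Members with no settled substrate included the largest increase. SLC25A43, on chromosome X (GRCh37, 118533299 to 118588441), had 17.5 and 15.3 normalized CPM in WT 1 and WT 2, and 22.9 and 20.5 normalized CPM in Helz-null 1 and Helz-null 2. The replicates were further apart than for the abundant carriers, yet both Helz-null libraries lay above both WT libraries. SLC25A43 rose by 30.6% (log2FC 0.39 ± 0.08 (SE), FDR = 4.6e-05), and the call held without each library in turn. Its neighbours had a median log2FC of −0.07, with 13 of 20 below 0. The most abundant member, SLC25A5, lies close to it on chromosome X and had a log2FC of −0.07. SLC25A35 and the outer membrane protein SLC25A46, which acts in mitochondrial dynamics, both had a log2FC of −0.02 and overlapping groups.

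Exons on the opposite strand also overlap SLC25A5 (SLC25A5-AS1), SLC25A22 (PANO1), SLC25A26 (LRIG1), SLC25A30 (SLC25A30-AS1 and TPT1-AS1), SLC25A32 (DCAF13), SLC25A35 (RANGRF), SLC25A40 (DBF4), SLC25A21 (PAX9 and SLC25A21-AS1), SLC25A25 (NAIF1 and SLC25A25-AS1) and SLC25A48 (CXCL14). On the same strand, SLC25A3 contains SNORA53 and SLC25A15 contains MIR621. Reads of these genes may be mixed with those of the carriers, and no overlapping gene that was tested was called.

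Neighbouring genes were examined for all 36 tested members, because runs of adjacent genes were known to shift together in these libraries. For each member, the median log2FC was taken over the 10 tested genes on either side of it on GRCh37. Of the 36 members, 22 (61.1%) lay on the same side of 0 as their neighbours, compared with 58.1% of the 11006 tested genes that had a position. When the neighbours' median was entered as an offset for the Helz-null libraries, 12.2% of all genes tested were up-regulated and 13.2% down-regulated. The median was entered as a fixed value. Every FDR given relative to neighbours therefore leaves out the error of that median and is too small to that extent. Under that offset 3 members remained up-regulated (SLC25A43, SLC25A23 and SLC25A33) and 3 down-regulated (SLC25A29, SLC25A22 and SLC25A30), and these 6 were all among the 13 called without it. The 7 that lost their call were SLC25A4, SLC25A38, SLC25A24, SLC25A36, SLC25A11, SLC25A10 and SLC25A3. For SLC25A4 the value also changed sign. The source of the shifts shared by neighbours was not tested.

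**Figure D3:**
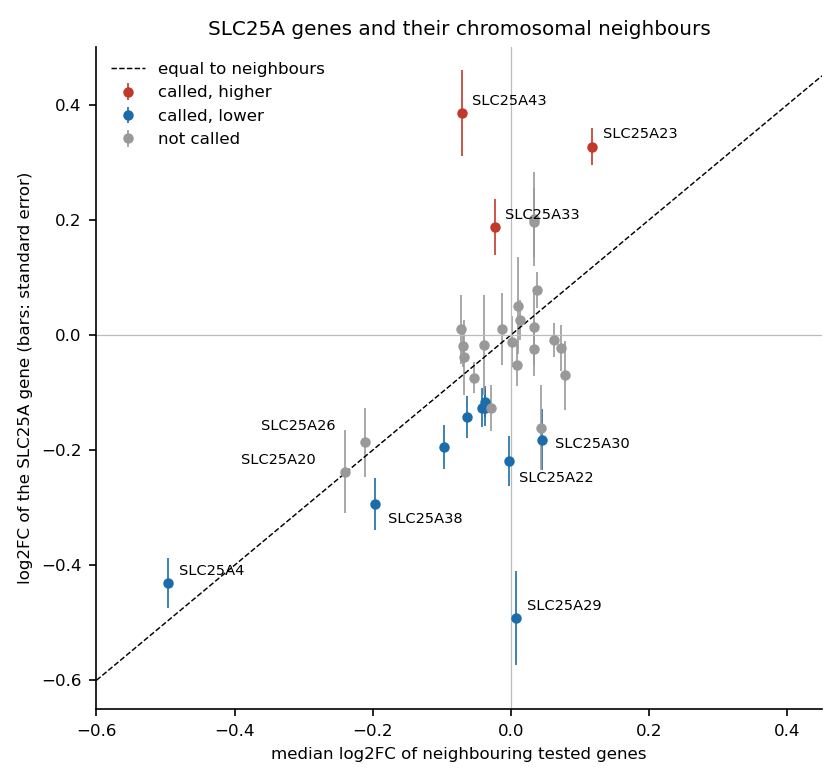
The log2FC of 35 tested SLC25A genes (vertical axis, bars for the standard error) against the median log2FC of its neighbouring tested genes (horizontal axis), with a dashed line where they are equal. On the horizontal axis SLC25A4 lies at −0.50, near the line, and SLC25A20, SLC25A26 and SLC25A38 lie between −0.24 and −0.20. SLC25A29 and SLC25A43 lie furthest from the line.

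Genes that work with the carriers were described with the same fit. Of the relatives named otherwise, MTCH1 rose (log2FC 0.16, FDR = 3.6e-05), the uncoupling protein UCP2 fell (log2FC −0.18, FDR = 1.0e-04) and MTCH2 was not called. The list drawn up for the import pathway of the carriers had 2 of 15 tested genes up-regulated (13.3%, against 13.5% of all genes tested). In the same list 4 were down-regulated (26.7%, against 15%), with a median log2FC of −0.12. TOMM20, a receptor of the outer membrane translocase, had 890 and 881 normalized CPM in WT 1 and WT 2 and 580 and 587 normalized CPM in Helz-null 1 and Helz-null 2. This was the largest change in these lists (log2FC −0.60, FDR = 1.2e-22), and its neighbours also had a low median log2FC of −0.45. The receptor TOMM70 was not called (log2FC −0.10, FDR = 0.0088). The receptor TOMM22 and the small chaperones TIMM9 and TIMM13 fell (log2FC −0.15, −0.28 and −0.17). TIMM8A, another small chaperone, and AGK, a subunit of the carrier translocase, rose (log2FC 0.17 and 0.19), although both had neighbours above 0 (median log2FC 0.13 and 0.23).

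Inner membrane transporters outside the family had 1 of 13 tested genes up-regulated (7.69%, against 13.5% of all genes tested) and 2 down-regulated (15.4%, against 15%), with a median log2FC of −0.02. ABCB8 rose (log2FC 0.28) beside neighbours at a median log2FC of 0.22, SFXN4 fell (log2FC −0.15), and ABCB10, which acts in haem synthesis, fell (log2FC −0.28) beside neighbours at a median log2FC of −0.54. The pyruvate carrier subunits MPC1 and MPC2 were not called. Of the 3 outer membrane porins, VDAC2 fell (33.3%, against 15% of all genes tested; log2FC −0.11, FDR = 0.0017). Among 4 enzymes of the malate-aspartate shuttle, only GOT1 was called (25%, against 15%), and it fell (log2FC −0.14, FDR = 0.0030).

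Enzymes that share a substrate with a carrier had 2 of 25 tested genes up-regulated (8%, against 13.5% of all genes tested) and 8 down-regulated (32%, against 15%), with a median log2FC of −0.07. ACLY, which cleaves the citrate exported by SLC25A1, rose from 724 and 709 normalized CPM in WT 1 and WT 2 to 807 and 818 normalized CPM in Helz-null 1 and Helz-null 2 (log2FC 0.18, FDR = 3.9e-07). DHTKD1, of the oxoadipate dehydrogenase, rose as well (log2FC 0.23), beside neighbours at a median log2FC of 0.12. The mitochondrial enzymes of serine and folate metabolism SHMT2, MTHFD2 and MTHFD1L all fell (log2FC −0.24, −0.21 and −0.24). ASS1 and OAT, which handle citrulline and ornithine, fell (log2FC −0.36 and −0.11). So did CPT1A, which makes the acylcarnitine carried by SLC25A20 (log2FC −0.27), and the glutathione peroxidase GPX4 (log2FC −0.18). Among regulators of mitochondrial biogenesis, 2 of 10 tested genes were down-regulated (20%, against 15% of all genes tested), and the median log2FC was −0.10. TFAM packages mitochondrial DNA and acts in its transcription. It had 241 and 249 normalized CPM in WT 1 and WT 2. In Helz-null 1 and Helz-null 2 it fell to 188 and 193 normalized CPM (log2FC −0.36, FDR = 1.9e-13). PPRC1 also fell (log2FC −0.19), while NRF1 and GABPA were not called.

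**Figure D4:**
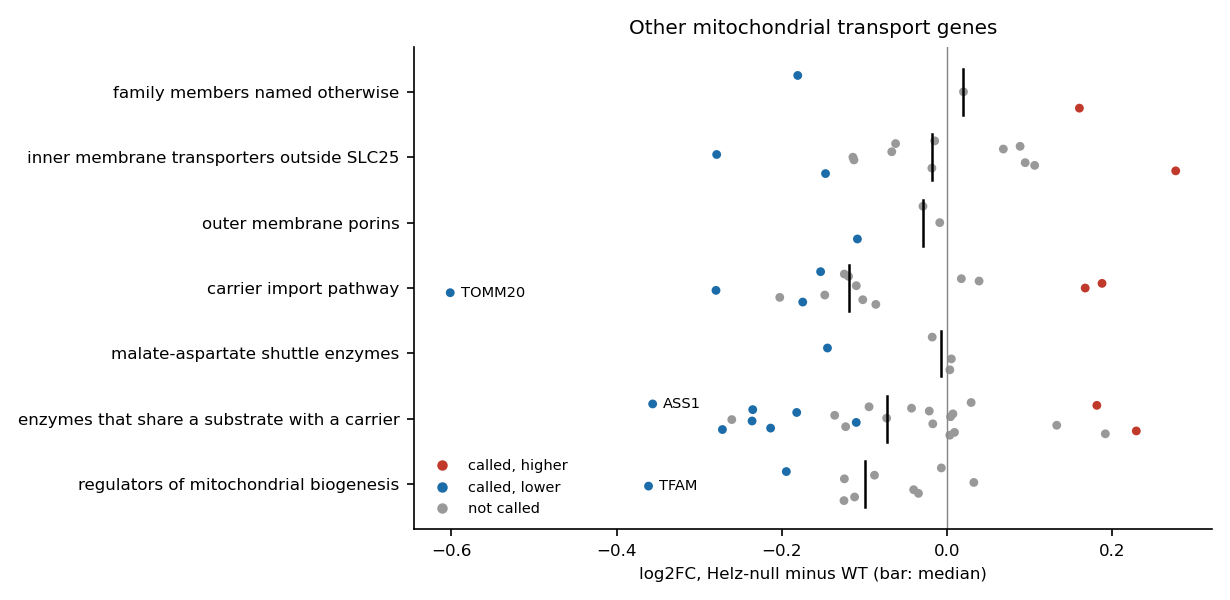
The log2FC (Helz-null minus WT) of tested genes in 7 lists, which hold transport and import genes, enzymes and regulators of mitochondrial biogenesis. Each of 72 genes has a point coloured by its call at FDR < 0.005, and a bar marks the median of each whole list. The medians lie between −0.12 (carrier import pathway) and 0.02 (family members named otherwise), and TOMM20 lies furthest from 0.

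The cell type was checked with marker genes. Of 8 HEK293T markers, 6 were above 2 FPKM, with vimentin (VIM) the most abundant. The summed level of all 8 was 1505 and 1500 normalized CPM in WT 1 and WT 2. In Helz-null 1 and Helz-null 2 it was 1586 and 1567 normalized CPM. Of the 6 markers above 2 FPKM, NEFM rose (log2FC 0.89) and KRT8, EYA1, KRT18 and VIM fell (log2FC −0.98, −0.55, −0.16 and −0.14). That was 16.7% up-regulated and 66.7% down-regulated, against 13.5% and 15% of all genes tested. The part of these shifts in the carriers' changes was not tested. Among 5 fibroblast markers only COL1A1 was above 2 FPKM, and DCN was listed at 0. None of the haematopoietic, hepatocyte or striated muscle markers was above 2 FPKM, and HBB and TTR were listed at 0.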

How the data were processed

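RNA from 2 WT and 2 Helz-null HEK293T cultures was sequenced from both ends on an Illumina HiSeq. After filtering out ribosomal RNA with Bowtie2, the authors aligned reads to hg19 by TopHat2 and deposited raw counts per gene made with QuasR, without a filter, together with the width of each gene in bases. Versions, annotation, use of strand and the treatment of mates are not given in the sources used here. The deposited comparison of the authors, made with edgeR (fold changes, mean abundance and test results), was not used.

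FPKM was computed here from library totals and gene width. Genes with a mean FPKM above 2 over the 4 libraries (11310) were tested with edgeR 4.0.16 in R 4.3.3: TMM scaling, the quasi-likelihood fit and test on genotype alone, and Benjamini-Hochberg FDR < 0.005. Normalized CPM uses the TMM-scaled library sizes, and SE is the absolute log2FC divided by the square root of F. Replicates differed by more than counting noise (chi-square per degree of freedom 4.11 for WT and 2.96 for Helz-null, or 2.06 and 1.48 with counts divided by 2). That comparison covers counting error only, so it does not show how the replicates were made. The fit was tested on simulated data with known changes first.

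Gene positions and exon overlaps came from GENCODE on GRCh37, matched by symbol or older symbol, and positions were found for 11006 of the tested genes. Windows of 50 bases of each member's canonical transcript were searched in the GRCh37 genome. Promoter windows came from RefSeq on GRCh38.p14. Python 3.11.15 with pandas 2.3.3 and matplotlib 3.10.9 drew the figures.

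Genes were named by rule: HELZ, GAPDH, each called member, the 10 members with the highest mean FPKM, the uncalled members nearest to the threshold or with the largest absolute log2FC, untested members, and called genes of the other lists. Further members near the threshold were named after their values were seen. A member and an enzyme of the other lists were counted but are not reported here by name or drawn. Members and lists were chosen with earlier results of these data known. Alternatives covered the scaling, the gene filter, the test (DESeq2 1.42.0, or a 1.2-fold minimum), an FDR of 0.05, the replicate number as a block, counts divided by 2 in case both mates were counted, the neighbours' median as an offset, and each library left out.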

Additional observations from a re-analysis of the deposited data

How the results depend on the processing

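With DESeq2 size factors, either other FPKM filter or counts divided by 2, the 13 called members were the same. With no filter SLC25A20 was called as well (median log2FC −0.028 over 46 members), and with filterByExpr SLC25A30 was not. Library size alone called 5 up and 5 down, with a median log2FC of −0.013 against −0.045. Of 6 members that changed sign, all uncalled, SLC25A39 turned to a log2FC of 0.023. The DESeq2 test called 2 members up and 6 down, with 1087 and 1279 genes over all in place of 1522 and 1695. Against a fold of 1.2, 0 members were up and 1 was down. There were 206 and 309 genes over all (1.82% and 2.73%), and 0 and 2 of 73 tested genes over the other lists. At FDR < 0.05, 6 members were up and 15 down, with 2379 and 2501 genes over all. The neighbour offset called 3 down (median log2FC −0.020), and 7 members changed sign. Among these, SLC25A4, SLC25A26 and SLC25A20 turned to 0.065 (FDR = 0.25), 0.024 (FDR = 0.78) and 0.0024 (FDR = 0.98). Of the 73 tested genes of the other lists, that offset called 4 up and 23 down, in place of 6 and 19. Over all genes tested, the shares were 12.2% up and 13.2% down, in place of 13.5% and 15%. The TMM-scaled ratio of summed FPKM was 0.959 against 0.981. HELZ kept its direction and call in every alternative run, libraries left out included, with log2FC between −1.47 and −1.41.

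Leaving out each library in turn gave between 4 and 10 members down, between 2 and 3 up, and over all genes between 1000 and 1508 up and between 1186 and 1636 down. The lowest count of members down, 4, came without Helz-null 1, and without Helz-null 2 it was 6. Calls were also gained: SLC25A15 without WT 1, SLC25A26 without WT 2 and SLC25A20 without Helz-null 2. The log2FC of SLC25A39 lay between −0.020 without Helz-null 2 and 0.0011 without Helz-null 1. These fits assume that the lone library of a group varies like the other group. They have fewer samples, and which of the lost calls come from that was not tested.

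Same-numbered libraries did not deviate together (r = 0.026 over 11310 genes, which are not independent replicates), so no shift shared by replicate number was seen. Whether the cultures were grown or prepared in pairs cannot be told from this value. With the replicate number as a block, 11 members were down and 4 up, with 1835 and 1675 genes over all, and SLC25A14 and SLC25A20 were added to the 13. With 2 libraries a group, the smallest absolute log2FC called over all genes was 0.09.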
